A study of Mus musculus with 23 samples.

Results

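The genes described are 10 that build the postsynaptic side of the neuromuscular junction: Chrna1, Chrnb1, Chrnd, Chrne and Chrng, which encode the subunits of the muscle acetylcholine receptor, and Musk, Rapsn, Dok7, Lrp4 and Agrn, which encode the proteins that gather the receptor under the nerve ending. They were chosen by symbol, with earlier results of these data known, and all 10 were found among the 24062 symbols of the count table. RNA sequencing had been done on whole gastrocnemius muscle and on fat (IAT) of mice aged 8 to 10 months on a mixed 129Sve/C57BL/6 background. HL1002P mice carry a hypomorphic allele (H) of Bub1b, the gene of the spindle checkpoint kinase BubR1, over an allele with the missense change L1002P. HH mice carry the hypomorphic allele on both chromosomes, and WT mice carry neither. Muscle gave 4 HL1002P, 3 HH and 4 WT libraries, and fat gave 4 libraries of each genotype. The submitters call both progeroid MVA mutants, for mosaic variegated aneuploidy. The alleles are in every cell of the animal, so the tissue in which an effect starts cannot be told apart here. The labels give no sex and do not state that the replicates were separate animals, so p-values measure the spread between these libraries.

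In adult muscle the receptor is a ring of α1, β1, δ and ε subunits, and it sits almost entirely at the synapse. Fetal muscle uses a γ subunit, the product of Chrng, in place of ε, and γ is known to return along the whole fibre, together with more α1, β1 and δ, when a muscle loses its nerve or regenerates. Agrin from the motor nerve binds LRP4, LRP4 activates the kinase MuSK with the help of the adaptor DOK7, and rapsyn then anchors the receptors. Work in rodent muscle has tied the activity-dependent control of these genes to E-boxes, the sites of the myogenic factors, and the synapse-specific control of Chrne to an N-box, a site of ETS factors.

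The promoters of the receptor subunits are shown because they hold these letters. Each sequence runs 5′ to 3′ on the gene's own strand over 300 bases around the RefSeq transcription start (GRCm38.p6), with capitals marking the E-box CANNTG and the N-box CCGGAA, both searched on both strands. The Chrng promoter lies at chr1:87205561-87205860 (plus strand), that of Chrna1 at chr2:73580289-73580588 (minus strand), that of Chrnb1 at chr11:69795888-69796187 (minus strand) and that of Chrne at chr11:70619145-70619444 (minus strand).
Chrng: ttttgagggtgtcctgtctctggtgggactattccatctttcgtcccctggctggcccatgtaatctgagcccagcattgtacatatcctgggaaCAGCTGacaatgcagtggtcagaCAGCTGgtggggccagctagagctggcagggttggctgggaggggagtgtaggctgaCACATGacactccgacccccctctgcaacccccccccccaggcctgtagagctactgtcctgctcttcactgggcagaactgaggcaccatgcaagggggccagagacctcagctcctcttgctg
Chrna1: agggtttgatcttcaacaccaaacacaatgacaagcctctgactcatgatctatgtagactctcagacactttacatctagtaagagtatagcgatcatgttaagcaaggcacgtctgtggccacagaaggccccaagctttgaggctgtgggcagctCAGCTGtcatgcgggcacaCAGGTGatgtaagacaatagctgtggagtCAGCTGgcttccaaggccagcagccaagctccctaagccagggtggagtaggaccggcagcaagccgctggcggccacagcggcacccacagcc
Chrnb1: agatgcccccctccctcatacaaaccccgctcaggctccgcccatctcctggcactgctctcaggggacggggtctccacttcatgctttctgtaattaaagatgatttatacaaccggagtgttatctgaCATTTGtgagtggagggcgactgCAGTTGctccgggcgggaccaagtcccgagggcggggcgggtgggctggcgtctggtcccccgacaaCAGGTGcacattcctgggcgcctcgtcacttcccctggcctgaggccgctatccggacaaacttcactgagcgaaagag
Chrne: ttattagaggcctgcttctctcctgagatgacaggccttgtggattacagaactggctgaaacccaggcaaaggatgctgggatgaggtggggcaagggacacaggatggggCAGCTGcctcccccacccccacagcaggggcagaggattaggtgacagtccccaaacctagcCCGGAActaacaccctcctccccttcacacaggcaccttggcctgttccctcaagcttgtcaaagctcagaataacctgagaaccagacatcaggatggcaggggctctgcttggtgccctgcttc
The windows of Chrng, Chrna1, Chrnb1 and Musk held 3 E-boxes each and no N-box. The window of Chrne held 1 E-box and 1 N-box, and no E-box overlapped the N-box. Dok7 and Agrn each have more than 1 RefSeq start, and their windows held 0 or 1 E-box. Of 32851 mouse promoter windows of the same length, 72.3% held an E-box, 17.6% held at least 3 and 14.9% held the N-box, so these matches are common and describe letters only.

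The muscle libraries held 34.1 to 55.3 M counts each and the fat libraries 22.6 to 58.8 M. Bub1b itself averaged 0.210 ± 0.0424 CPM (counts scaled to the size of the library) in HL1002P muscle and 0.395 ± 0.109 CPM in HH muscle, against 0.829 ± 0.102 CPM in WT muscle (SD, n = 4, 3 and 4). It was lower in HL1002P muscle by the test (log2 fold change −1.96 ± 0.32, edgeR adjusted p = 0.0498), while in HH muscle the difference did not pass (−1.07 ± 0.33, edgeR adjusted p = 0.147). The HL1002P muscle libraries held only 7, 8, 8 and 15 Bub1b counts. In fat Bub1b averaged 17.2 ± 7.57 CPM in HL1002P and 10.2 ± 3.51 CPM in HH, against 9.88 ± 1.99 CPM in WT (SD, n = 4 each). Neither mutant mean was below that of WT there. All 12 listed markers of skeletal muscle were detected in every genotype in muscle, and their summed level was 191739 to 230244 CPM in HL1002P, 170621 to 227082 CPM in HH and 178628 to 250485 CPM in WT libraries. HL1002P replicate 1 and HH replicate 1 stand apart from the other libraries of their groups, and the results of the 10 genes that rest on them are given with and without them. In bulk tissue, more transcripts per junction and more junctions or receptive fibres cannot be told apart.

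The receptor subunit genes Chrng, Chrnd, Chrna1 and Chrnb1 all lay above the whole WT range in each of the 7 mutant muscle libraries, with fitted ratios of 24.2, 3.83, 3.22 and 1.82 in HL1002P and of 12.3, 3.02, 2.96 and 2.09 in HH. Without HL1002P replicate 1 the ratios in HL1002P were 7.40, 1.86, 1.86 and 1.48, and without HH replicate 1 those in HH were 10.3, 2.02, 2.03 and 1.72. The adult subunit gene Chrne and the clustering genes Rapsn, Lrp4 and Agrn had fitted log2 differences between −0.03 and 0.33. No member passed an adjusted p of 0.05 (edgeR quasi-likelihood test with Benjamini-Hochberg adjustment over 14580 tested genes) in HL1002P against WT, where 0.117% of all tested genes passed, or in HH against WT, where 0.377% passed; DESeq2 called Chrng and Chrnb1 in both comparisons, and limma voom called none. At an unadjusted p under 0.05, 5 of 10 members were higher and none lower in HL1002P muscle, beside 6.74% of all tested genes higher and 3.81% lower. In HH muscle 6 of 10 were higher and none lower, beside 9.04% higher and 7.51% lower. Without HH replicate 1 alone, 3 of 10 had an unadjusted p under 0.05 in HH, Chrng and Chrnb1 among them. The share of all genes at that threshold was not taken for this fit. With adjustment 32 of its 14810 tested genes passed and no member did. Without replicate 1 of both mutants, 5 of 10 were higher and none lower in each mutant. Of all genes, 5.62% were then higher in HL1002P and 7.04% in HH. With all libraries kept and no overlap between the groups, 4 of 10 members were higher in HL1002P muscle, against 3.09% of all genes. In HH muscle 5 of 10 were, against 7.38%. The median log2 fold change of the 10 genes was 0.59 in HL1002P and 0.86 in HH muscle, beside 0.00 and 0.01 over all tested genes. Without replicate 1 of both mutants it was 0.52 in HL1002P and 0.47 in HH. Both comparisons share the 4 WT libraries and are not independent of each other. The 10 genes and the lists below were chosen with earlier results of these data known. The shares of all genes, here and below, are therefore a description and not a test of any set.

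**Figure D1:**
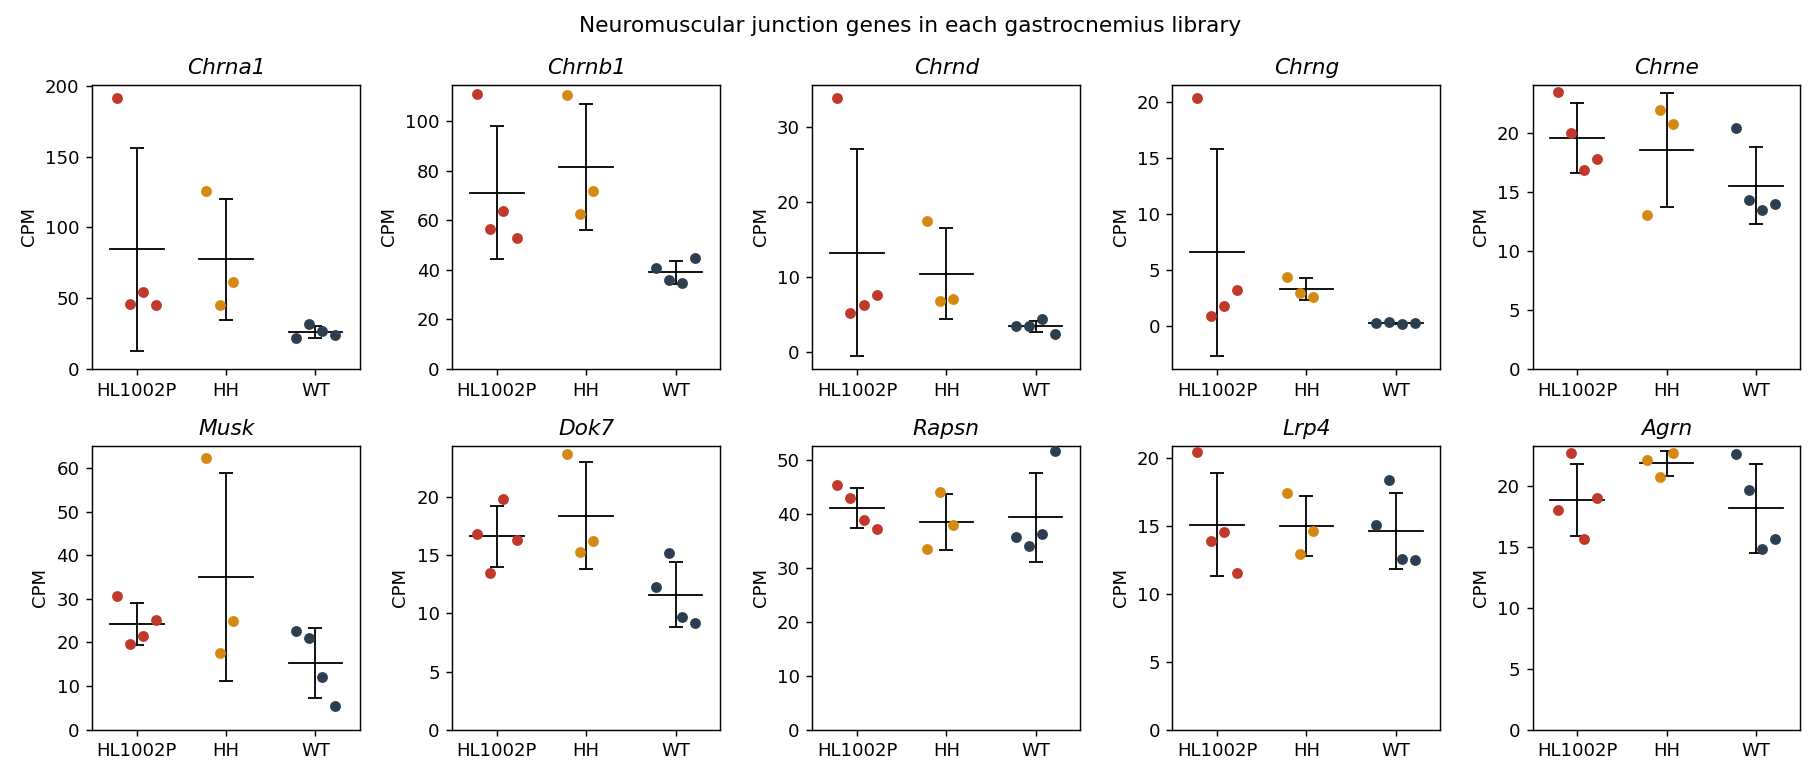
Level of each of the 10 genes in the 11 muscle libraries, in CPM on TMM-scaled library sizes (vertical axes on different scales, most starting at 0); points are libraries, long bars means and whiskers 1 SD, with HL1002P, HH and WT from left to right. For Chrna1, Chrnb1, Chrnd and Chrng every mutant library lies above every WT library, and the topmost point is HL1002P replicate 1.

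Chrna1, the subunit that carries the main part of the acetylcholine binding site, is on chromosome 2 (GRCm38, 73563215 to 73580338), 45.02 Mb from Bub1b. Its level was 191.7, 46.1, 54.5 and 45.2 CPM in HL1002P muscle and 125.5, 45.0 and 61.5 CPM in HH muscle, against 21.9, 31.9, 27.1 and 23.7 CPM in WT muscle. Replicate 1 was the highest library of each mutant, and the other mutant libraries still lay above all WT libraries. The log2 fold change was 1.69 ± 0.47 in HL1002P (edgeR adjusted p = 0.267) and 1.56 ± 0.49 in HH (edgeR adjusted p = 0.150). Without the group's own replicate 1 it was 0.89 ± 0.28 in HL1002P and 1.02 ± 0.50 in HH.

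Chrnb1, the β1 subunit, whose phosphorylation strengthens the link to rapsyn, lies on chromosome 11 (69784036 to 69795943). It stood at 110.7, 56.5, 63.9 and 52.9 CPM in HL1002P and at 110.4, 62.6 and 71.7 CPM in HH libraries, against 40.9, 35.7, 34.8 and 44.8 CPM in WT libraries. The groups did not overlap, and the highest WT library was close below the lowest HL1002P one. Its log2 fold change was 0.86 ± 0.24 in HL1002P (edgeR adjusted p = 0.267) and 1.06 ± 0.25 in HH (edgeR adjusted p = 0.0774), and without the group's own replicate 1 it was 0.57 ± 0.18 in HL1002P and 0.78 ± 0.25 in HH.

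Chrnd and Chrng, encoding δ and γ, are neighbours on chromosome 1 in the same orientation (87190607 to 87200070 and 87204657 to 87212694). Chrnd was at 33.9, 5.30, 6.30 and 7.63 CPM in HL1002P and 17.4, 6.84 and 7.09 CPM in HH muscle, against 3.47, 3.45, 4.41 and 2.49 CPM in WT muscle. Its log2 fold change was 1.94 ± 0.57 in HL1002P (edgeR adjusted p = 0.288) and 1.60 ± 0.59 in HH (edgeR adjusted p = 0.213). As for Chrna1, replicate 1 was far above the other libraries of each mutant, and without the group's own replicate 1 the log2 fold change was 0.89 ± 0.32 in HL1002P and 1.01 ± 0.62 in HH.

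Chrng, the fetal subunit, showed the largest ratio of the 10 genes. The libraries held 708, 41, 76 and 179 Chrng counts in HL1002P and 189, 149 and 120 in HH, against 11, 20, 8 and 11 in WT. As levels these were 20.4, 0.925, 1.77 and 3.25 CPM in HL1002P muscle and 4.40, 2.96 and 2.60 CPM in HH muscle, against 0.243, 0.348, 0.207 and 0.256 CPM in WT muscle. No mutant library came near the highest WT library. The log2 fold change was 4.60 ± 0.90 in HL1002P (edgeR adjusted p = 0.106) and 3.62 ± 0.91 in HH (edgeR adjusted p = 0.0882). Without HL1002P replicate 1 it was 2.89 in HL1002P, and without HH replicate 1 it was 3.36 in HH.

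**Figure D2:**
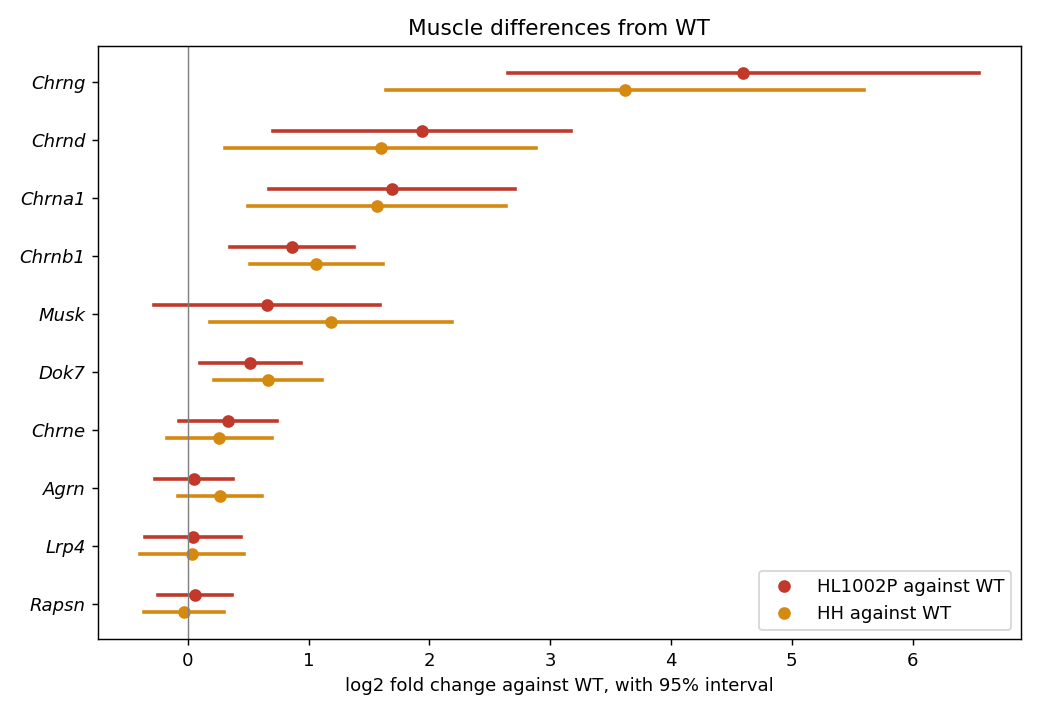
Log2 fold change against WT muscle of the 10 genes, from the largest at the top, with points for the estimate and bars for the 95% interval, HL1002P drawn above HH. The intervals of Chrng, Chrnd, Chrna1, Chrnb1 and Dok7 lie above 0 for both mutants, and those of Chrne, Agrn, Lrp4 and Rapsn include 0.

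Chrne, the adult counterpart of Chrng on chromosome 11 (70614883 to 70619216), was at 23.5, 20.0, 16.8 and 17.8 CPM in HL1002P and 13.0, 21.9 and 20.7 CPM in HH muscle, against 20.4, 14.3, 13.4 and 13.9 CPM in WT muscle. The groups overlapped, since WT replicate 1 was among the highest libraries and HH replicate 1 the lowest of all. The log2 fold change was 0.33 ± 0.19 in HL1002P (95% interval −0.07 to 0.74) and 0.26 ± 0.20 in HH (−0.18 to 0.69). The library kit does not keep strand, and the gene 4930544D05Rik overlaps Chrne on the other strand with no shared exonic base, so intronic reads of the pair would not be separated by strand.

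The share of Chrng in the summed Chrng and Chrne counts was 46.5%, 4.43%, 9.54% and 15.5% in HL1002P and 25.3%, 11.9% and 11.1% in HH libraries, against 1.18%, 2.38%, 1.52% and 1.80% in WT libraries. In every mutant library the share was above the highest WT share. The log2 ratio of Chrng to Chrne averaged −2.58 ± 1.78 in HL1002P and −2.48 ± 0.79 in HH, against −5.82 ± 0.42 in WT (SD, n = 4, 3 and 4). Without replicate 1 of both mutants the mean was −3.37 in HL1002P and −2.94 in HH. Scaled to exon length, Chrng made up 1.85% to 26.1% of the pair in HL1002P, 4.84% to 12.1% in HH and 0.483% to 0.980% in WT libraries, so the adult subunit's transcript stayed the more abundant of the pair in all 11 libraries.

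**Figure D3:**
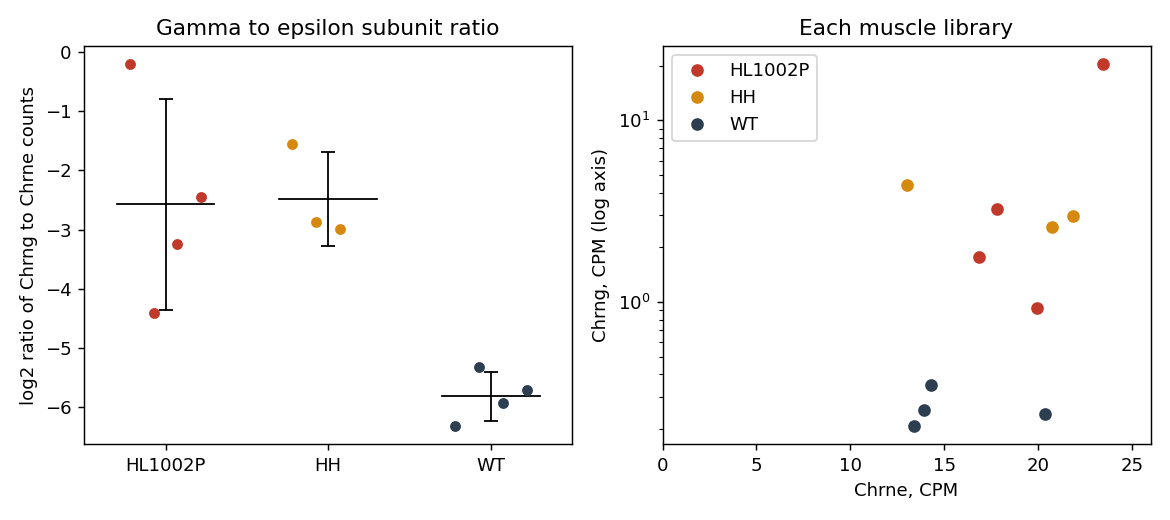
Left, the log2 ratio of Chrng to Chrne counts in each muscle library by genotype, with the mean and 1 SD; right, Chrng (log axis) against Chrne, both in CPM, 1 point per library. The 7 mutant libraries lie above the 4 WT libraries on the Chrng axis, while on the Chrne axis the genotypes overlap.

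Musk, the receptor tyrosine kinase that agrin and LRP4 switch on, lies on chromosome 4 (58285960 to 58374303). It was at 30.7, 19.6, 21.5 and 25.2 CPM in HL1002P and 62.3, 17.7 and 25.0 CPM in HH muscle, against 22.7, 21.1, 12.1 and 5.54 CPM in WT muscle. The groups overlapped, the WT libraries spread widely, and HH replicate 1 was the highest of all. The log2 fold change was 0.65 ± 0.43 in HL1002P (edgeR adjusted p = 0.624) and 1.19 ± 0.46 in HH (edgeR adjusted p = 0.232), and it was 0.47 in HH without HH replicate 1.

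Dok7, the adaptor that MuSK needs for full activity, lies on chromosome 5 (35056766 to 35087839). It measured 16.9, 13.5, 19.9 and 16.3 CPM in HL1002P and 23.7, 15.3 and 16.3 CPM in HH muscle, against 12.3, 15.2, 9.73 and 9.14 CPM in WT muscle. HH libraries lay just above the highest WT library, and HL1002P replicate 2 lay below it. The log2 fold change was 0.52 ± 0.19 in HL1002P (edgeR adjusted p = 0.388) and 0.66 ± 0.20 in HH (edgeR adjusted p = 0.145). Without HH replicate 1 it was 0.44 in HH.

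Rapsn, Lrp4 and Agrn differed little between genotypes. Rapsn, on chromosome 2 (91035620 to 91045729) and the anchor of the receptor, was at 45.3, 42.8, 38.7 and 37.1 CPM in HL1002P and 33.5, 43.9 and 37.9 CPM in HH muscle, against 35.6, 33.9, 36.2 and 51.5 CPM in WT muscle. Its log2 fold change was 0.06 (95% interval −0.25 to 0.37) in HL1002P and −0.03 (−0.37 to 0.30) in HH, and the fitted difference of Chrna1 lies outside both intervals. Lrp4, the agrin receptor on chromosome 2 (91457511 to 91513779), ranged from 11.5 to 20.5 CPM in HL1002P and from 13.0 to 17.4 CPM in HH, against 12.5 to 18.4 CPM in WT libraries. Its intervals were −0.36 to 0.44 in HL1002P and −0.40 to 0.47 in HH. Agrn, made by nerve and muscle and on chromosome 4 (156165290 to 156197488), ranged from 15.6 to 22.7 CPM in HL1002P and from 20.7 to 22.7 CPM in HH, against 14.8 to 22.6 CPM in WT libraries, with intervals of −0.27 to 0.38 and −0.08 to 0.61. The counts do not tell the nerve and muscle forms of agrin apart.

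Per kilobase of exon, the order of mean levels in HL1002P muscle was Chrnb1 (28.1), Rapsn (22.8), Chrna1 (19.2), Chrne (11.5), Musk (6.41), Chrnd (4.04), Dok7 (3.89), Agrn (2.03), Chrng (1.58) and Lrp4 (1.44 CPM per kilobase). In HH muscle Chrnb1 (32.2) again led Rapsn (21.3) and Chrna1 (17.6), with Chrng (0.798) last. These orders partly rest on replicate 1: without it Chrng averaged 0.477 CPM per kilobase in HL1002P muscle and came last, Chrnd (1.95) came below Dok7 (3.87) and Agrn (2.06), and in HH muscle Chrna1 (12.1) came below Chrne (12.6) and Chrnd (2.12) below Agrn (2.34). In WT muscle Rapsn led at 21.8 ± 4.55 CPM per kilobase, followed by Chrnb1 at 15.4 ± 1.84, Chrne at 9.17 ± 1.93, Chrna1 at 5.96 ± 1.01 and Musk at 4.07 ± 2.13 (SD, n = 4). Dok7 (2.71), Agrn (1.95), Lrp4 (1.39) and Chrnd (1.05) followed, and Chrng came last at 0.0634 ± 0.0144. In WT muscle the libraries of Rapsn, Chrnb1, Chrne and Chrna1 did not overlap each other on this scale, and Chrng was below every other member in each library. From Chrna1 down to Chrnd, each gene's mean ± SD overlapped that of the next.

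Between the mutants, HL1002P against HH, all 10 members overlapped and none passed, at an unadjusted p under 0.05 either, beside 0.0206% of all genes that passed with adjustment and 4.60% without. Of all genes 2.76% were higher and 2.61% lower with no overlap in this comparison. DESeq2 and limma voom called none here. The largest difference was that of Chrng, 0.98 ± 0.80 on the log2 scale (95% interval −0.76 to 2.72), followed by Musk at −0.53 (−1.53 to 0.47). Their signs rest on single libraries, since Chrng was −0.74 ± 0.40 without HL1002P replicate 1 and Musk 0.18 ± 0.43 without HH replicate 1, and limma voom gave −0.0919 for Chrng. Chrnd, at 0.34 with all libraries, was −0.70 ± 0.34 and Chrna1, at 0.13, was −0.67 ± 0.30 without HL1002P replicate 1. The interval of Chrna1, −0.94 to 1.19, and that of Chrnd, −0.94 to 1.62, extend past the fitted difference of Chrnb1 from WT in either mutant. Taking the mean of both mutants against WT, no member passed, beside 0.521% of all genes that did. Chrng was nearest, at a log2 fold change of 4.11 ± 0.85 (edgeR adjusted p = 0.0550), followed by Chrnb1 at 0.96 ± 0.22 (edgeR adjusted p = 0.0746) and Chrna1 at 1.63 ± 0.43 (edgeR adjusted p = 0.113). At an unadjusted p under 0.05, 6 of 10 members were higher, beside 9.37% of all genes, and DESeq2 called 4 (Chrng, Chrnb1, Chrna1 and Dok7). In that comparison 4 of 10 members did not overlap, against 1.71% of all genes.

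HL1002P replicate 1 and HH replicate 1 held the highest Chrna1, Chrnb1, Chrnd, Chrng, Musk and Lrp4 levels of their groups. With both left out, a choice made after the data were seen, Chrng passed in HL1002P at 2.89 ± 0.41 (edgeR adjusted p = 0.0482) and in HH at 3.37 ± 0.44 (edgeR adjusted p = 0.0203). In HH muscle Chrnb1 then also passed at 0.78 ± 0.13 and Chrna1 at 1.03 ± 0.17 (edgeR adjusted p = 0.0355 for each), while in HL1002P muscle Chrna1 and Chrnb1 did not. These estimates are smaller than those from all libraries and their SE is smaller too. Of 14726 tested genes, 12 passed in HL1002P and 64 in HH in that fit. Without HL1002P replicate 1 alone, 4 members passed in HH against WT, where Chrnd joined the other 3 at 1.60 ± 0.32 (edgeR adjusted p = 0.0483), and Chrng passed in HL1002P (edgeR adjusted p = 0.0487). Of 14487 tested genes, 142 passed in HH and 8 in HL1002P in that fit. Without HL1002P replicate 2, Chrng passed in HL1002P at 4.96 (edgeR adjusted p = 0.0458), where 12 of 14516 genes passed. Without HH replicate 1 alone no member passed, and Chrna1 was 1.02 ± 0.50 in HH (edgeR adjusted p = 0.481).

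**Figure D4:**
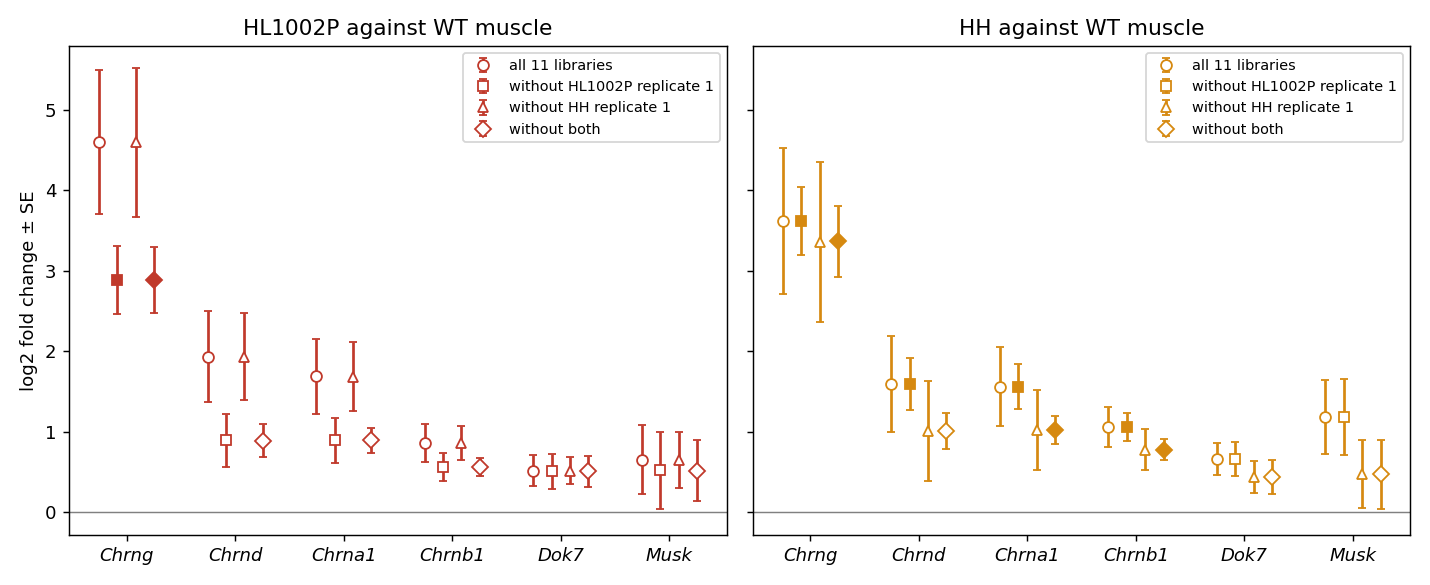
Log2 fold change ± SE of 6 members against WT muscle for HL1002P (left) and HH (right), from all 11 libraries (circles), without HL1002P replicate 1 (squares), without HH replicate 1 (triangles) and without both (diamonds); filled symbols passed an adjusted p of 0.05. Leaving out the group's own replicate 1 lowers the estimates of Chrna1, Chrnd and Chrnb1, and Chrng is at 2.89 or above in each fit.

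Genes known to respond when a muscle loses its nerve, and their regulators, were examined beside the members, as 22 genes that include transcription factors, signalling proteins and fetal channels. Most are known to rise after denervation, but some, such as Dach2 and Hdac9, are known to fall, so the list has no single direction. None of the 22 passed in HL1002P or HH against WT. At an unadjusted p under 0.05, 12 were higher and 2 lower in HL1002P, and 12 higher and 3 lower in HH; the medians were 0.85 and 1.09 on the log2 scale. Without replicate 1 of both mutants 9 were higher and 2 lower in each mutant, with medians of 0.58 and 0.70. The genes nearest to passing were Gdf5, a BMP ligand that limits denervation atrophy in mice, at 4.16 ± 1.03 (edgeR adjusted p = 0.236), and Runx1, a transcription factor induced on denervation, at 2.28 ± 0.61 (edgeR adjusted p = 0.260), both in HL1002P. In HH they were Ankrd1, a stress-responsive sarcomere protein, at 3.0 ± 0.69 (edgeR adjusted p = 0.0750) and Fgfbp1, a binding protein of fibroblast growth factors, at −1.68 ± 0.36 (edgeR adjusted p = 0.0632). Dach2, a transcriptional cofactor upstream of Myog, was at −1.0 ± 0.28 in HL1002P (edgeR adjusted p = 0.267) and −1.28 ± 0.31 in HH (edgeR adjusted p = 0.0811). With replicate 1 of both mutants left out, Runx1 rose in HH at 1.87 ± 0.22 (edgeR adjusted p = 0.0107) and Gdf5 rose at 3.35 ± 0.45 (edgeR adjusted p = 0.0215), and no gene of the list passed in HL1002P.

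Runx1 measured 35.0, 4.90, 6.44 and 8.85 CPM in HL1002P and 34.7, 9.07 and 11.6 CPM in HH muscle, against 2.66, 3.05, 2.77 and 2.81 CPM in WT muscle. Replicate 1 of each mutant was again the highest, and all mutant libraries lay above WT. Gdf5 was at 18.3, 1.22, 1.59 and 1.82 CPM in HL1002P and 15.4, 3.48 and 3.01 CPM in HH, against 0.221, 0.279, 0.648 and 0.140 CPM in WT libraries. Its groups did not overlap either. The myogenic factor Myog, which binds E-boxes and was chosen here after its values were seen, was at 40.6, 6.36, 11.9 and 16.5 CPM in HL1002P and 18.8, 16.2 and 16.3 CPM in HH, against 6.55, 5.28, 8.51 and 10.2 CPM in WT muscle. HL1002P replicate 2, the library with the least Chrng of the mutants, also had the least Myog of the mutants, within the WT range. This is a match in 1 library, and a link between Myog and Chrng was not tested.

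**Figure D5:**
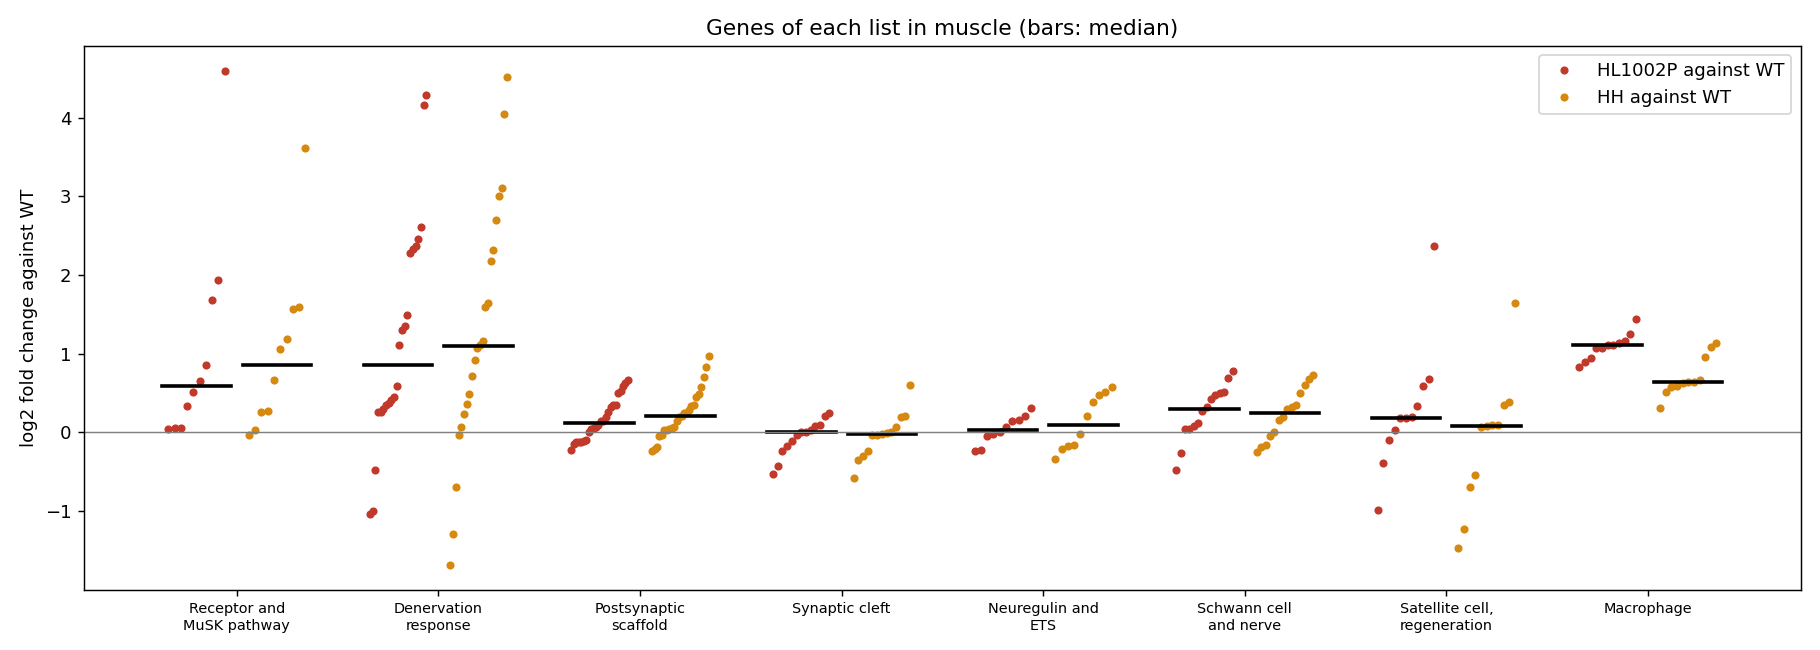
Log2 fold change against WT muscle of the genes of each list, 1 point per tested gene in rank order, HL1002P left of HH within each list, with bars at the median. The receptor and denervation lists spread to differences above 3, the postsynaptic scaffold, synaptic cleft and neuregulin lists stay between −1 and 1, and all macrophage markers lie above 0.

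The other junction lists had medians nearer to 0. Of 24 scaffold and dystrophin-complex genes none passed; at an unadjusted p under 0.05, 3 were higher in HL1002P and 6 in HH, none lower, with medians of 0.12 and 0.21. Src, a kinase that stabilises receptor clusters, was at 0.67 ± 0.19 in HL1002P (edgeR adjusted p = 0.280). Shc4, an adaptor that binds MuSK, was at 0.97 ± 0.32 and Dmd, which encodes dystrophin, at 0.48 ± 0.17 in HH (edgeR adjusted p = 0.162 and 0.190). Of 13 synaptic cleft genes none passed; at an unadjusted p under 0.05, 1 was lower and none higher in HL1002P, and 1 was higher and 1 lower in HH, with medians of 0.00 and −0.01. Bche, a cholinesterase, was at −0.53 ± 0.23 and Col4a3, a basement membrane collagen, at −0.43 ± 0.27 in HL1002P (edgeR adjusted p = 0.462 and 0.611). In HH, Lama5, a laminin chain of the synaptic basement membrane, was at 0.60 ± 0.20 and Colq, the collagen tail of acetylcholinesterase, at −0.58 ± 0.23 (edgeR adjusted p = 0.168 and 0.233). Of 12 genes of neuregulin and ETS signalling 10 were tested, with medians of 0.04 and 0.09, and Etv5, an ETS factor enriched at the junction in mice, was at 0.31 ± 0.14 in HL1002P (edgeR adjusted p = 0.474) and 0.38 ± 0.15 in HH (edgeR adjusted p = 0.245). Scn4a, the adult muscle sodium channel, was at −0.23 ± 0.13 in HL1002P and −0.33 ± 0.14 in HH (edgeR adjusted p = 0.550 and 0.261). Of 16 other acetylcholine receptor genes 5 passed the filter on low counts. Among them Chrna2, a neuronal subunit, did not pass, at 0.638 ± 0.137 CPM in HL1002P and 0.223 ± 0.159 CPM in HH against 1.52 ± 0.883 CPM in WT muscle (edgeR adjusted p = 0.421 and 0.0671). Chrnb2, another neuronal subunit, differed in the other direction and did not pass either, at 0.624 ± 0.287 CPM in HL1002P and 0.793 ± 0.198 CPM in HH against 0.315 ± 0.0626 CPM in WT muscle (edgeR adjusted p = 0.425 and 0.144).

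Levels of markers of other cells are given beside these results. The 14 Schwann cell and nerve markers summed to 318 to 433 CPM in HL1002P and 228 to 366 CPM in HH, against 207 to 350 CPM in WT libraries; none passed and none was at 0. The 12 satellite cell and regeneration genes summed to 5962 to 7125 CPM in HL1002P and 5991 to 7987 CPM in HH, against 4729 to 6205 CPM in WT. None was at 0, and of the 11 tested none passed. At an unadjusted p under 0.05, 3 were higher and 1 lower in HL1002P, and 2 higher and 3 lower in HH. Their medians were 0.19 and 0.08, so the higher sums do not describe the list gene by gene. Embryonic myosin Myh3 of this list was at 184, 15.3, 38.1 and 29.8 CPM in HL1002P and 54.0, 11.4 and 54.7 CPM in HH. Its WT levels were 10.2, 8.85, 14.7 and 17.7 CPM. Pax7, which marks satellite cells, averaged 0.956 ± 0.401 CPM in HL1002P and 0.681 ± 0.323 CPM in HH, against 1.89 ± 0.640 CPM in WT (SD). Its log2 fold change in HH was −1.47 ± 0.41 (edgeR adjusted p = 0.120). The 11 macrophage markers summed to 153 to 465.5 CPM in HL1002P and 203 to 278 CPM in HH, against 66.6 to 185 CPM in WT. None of the 11 passed; at an unadjusted p under 0.05 all 11 were higher in HL1002P and 3 in HH. Replicate 1 held 274 CPM of macrophage markers in HL1002P and 203 CPM in HH, neither the highest of its group. The 10 tendon markers summed to 221 to 335 CPM in HL1002P and 136 to 201 CPM in HH, against 207 to 428 CPM in WT libraries. None of the 10 passed; at an unadjusted p under 0.05, 1 was higher and 3 lower in HL1002P, and 1 higher and 7 lower in HH, with medians of −0.47 and −1.05. Fmod, a collagen-binding proteoglycan, was at −1.75 ± 0.34 and Chad, a matrix protein of tendon and cartilage, at −3.02 ± 0.61 in HH (edgeR adjusted p = 0.0553 and 0.0567). Both were lower, while 1 of the 10 was higher in HL1002P with no overlap with WT, against 3.09% of all genes. The tendon list thus did not move in a single direction. The 10 endothelial markers summed to 397 to 462 CPM in HL1002P and 389 to 487 CPM in HH, against 388 to 540 CPM in WT libraries. The 10 fat cell markers summed to 632 to 1056 CPM in HL1002P, 848 to 1420 CPM in HH and 659 to 1047 CPM in WT libraries. Whether regeneration, macrophages, nerve or tendon cells have a part in the receptor subunit levels was not tested.

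Over the 11 muscle libraries, the genes most like Chrna1 by Pearson r of log2 CPM among 12143 genes were Tnnt2 (0.973), Chrnd (0.968), Rrm2 (0.964), Ncam1 (0.964) and Mtch1 (0.963). With the 2 libraries farthest from the median of Chrna1 left out, r was 0.898, 0.872, 0.857, 0.886 and 0.908. Ncam1, a cell adhesion molecule that spreads over denervated fibres, was at 34.8, 11.6, 16.0 and 15.7 CPM in HL1002P and 27.3, 13.9 and 16.9 CPM in HH, against 7.15, 8.38, 10.2 and 10.2 CPM in WT libraries. The genes most like Chrne were Crym (0.932), 4930544D05Rik (0.890), Hddc2 (0.883), Pola2 (0.883) and Tmem206 (0.831), and without the 2 farthest libraries r was 0.939, 0.805, 0.817, 0.860 and 0.690. Of these, 4930544D05Rik overlaps Chrne on the other strand. Whether reads from that shared stretch have a part in its likeness was not tested. The libraries share their genotypes, so these values describe both the genotype difference and the spread within groups.

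In fat the junction genes were low, apart from Agrn, and none passed in HL1002P against WT (31.8% of 16266 tested genes passed), in HH against WT (20.8%) or between the mutants (0.00%). None was below an unadjusted p of 0.05 in edgeR either, beside 46.0%, 39.5% and 3.29% of all genes in those comparisons, and DESeq2 called none. Of the 10 genes 8 could be tested, since Chrnd and Chrng fell below the filter. Agrn averaged 59.5 ± 33.3 CPM in HL1002P and 66.7 ± 13.7 CPM in HH fat, against 107.5 ± 53.6 CPM in WT fat (SD, n = 4 each), with log2 fold changes of −0.85 ± 0.41 (edgeR adjusted p = 0.124) and −0.69 ± 0.41 (edgeR adjusted p = 0.225). Without HL1002P replicate 4, 1 member, Agrn, passed in HL1002P, beside 7018 of 16493 tested genes. Chrnb1 averaged 11.3 ± 2.94 CPM in HL1002P and 11.8 ± 1.67 CPM in HH, against 16.1 ± 7.45 CPM in WT, and Lrp4 averaged 4.11 ± 1.74 CPM in HL1002P and 4.98 ± 1.02 CPM in HH, against 7.86 ± 4.89 CPM in WT. Chrng had 6 counts in all HL1002P libraries together and 3 in all HH libraries, against 0 in all WT libraries, so no ratio is given. Muscle marker genes were uneven across the fat libraries: their summed level was 198 to 6829 CPM in HL1002P and 48.9 to 17024 CPM in HH, against 327 to 18508 CPM in WT fat. The highest HH value was that of replicate 1, which also held the highest HH level of Musk (2.64 CPM) and Chrna1 (2.08 CPM). The part of muscle RNA in these fat levels was not tested.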

How the data were processed

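RNA of 23 libraries, prepared with the TruSeq RNA v2 kit, was sequenced. The authors deposited raw counts per gene in 1 table. Per the submitters' processing notes, TopHat2 2.0.14, Bowtie2 2.2.6 and featureCounts 1.4.6 of the Subread package were used with mm10; the annotation, the strand setting and the handling of multi-mapped reads are not given in the sources used here. Counting error only is covered by read counts without molecular identifiers.

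Groups followed the genotype and tissue labels. Each tissue was fitted on its own in R 4.3.3 with edgeR 4.0.16: TMM scaling, filterByExpr by group, and quasi-likelihood tests with 1 coefficient per genotype. Adjusted p-values are Benjamini-Hochberg values over all tested genes, with a threshold of 0.05. Levels (CPM, TMM-scaled) are given per library or with their SD, log2 fold changes with their SE. Log2 ratios of Chrng to Chrne used counts plus 0.5. Likeness used log2 of CPM plus 0.1, among genes averaging 1 CPM or more. The test was also run on simulated counts with known changes. The simulated data held no outlying library and no pairing of replicates, so that run does not cover these features of the muscle data.

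All 10 members are named, and from the other lists genes among the 2 with the smallest p where none passed; genes outside this rule are marked, and the values of 2 genes that the rule names are not reported here. The members and lists were chosen with earlier results of these data known. Alternatives were DESeq2 1.42.0, limma 3.58.1 (voom), other scalings and filters, the compared groups only, a replicate block, a sex covariate, and each library left out. A library was taken as female where Xist counts exceeded Y-linked ones. Exon lengths and gene positions are from GENCODE on GRCm38, and 7 of the 10 members matched the promoter table of RefSeq (GRCm38.p6). Chrnd, Rapsn and Lrp4 were not in it.

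In muscle the replicate numbers pair HL1002P with HH: same-numbered libraries deviated together in 3 of 3 pairs (r = 0.271 to 0.363), over log2 CPM deviations from the group means. The numbers also follow sex there: replicates 1 and 2 were male and 3 and 4 female in each genotype that has them. HL1002P replicates 1 and 2 each correlated most with the HH library of the same number (r = 0.288 and 0.363). Sex does not separate these male libraries, but it does separate replicate 3 from them. The block changed no member's call in that comparison.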

Additional observations from a re-analysis of the deposited data

Results flagged for a closer look

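In 51 groups of 4 libraries, 9 had a library whose gap to its nearest neighbour took up most of the group's range (Dixon's 95% criterion). The criterion's rate of about 1 in 20 holds for independent, normally spread values. These groups share libraries and some hold few counts, such as Chrng in HH fat with 3 counts in replicate 1 and 0 in the others. The number flagged is therefore not set against that rate.

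In muscle, HL1002P replicate 1 was far above the other HL1002P libraries for Chrna1 (191.7 CPM, the next library at 54.55 CPM), Chrnd (33.87 CPM, the next at 7.634 CPM) and Chrng (20.39 CPM, the next at 3.254 CPM). In WT muscle, replicate 1 was high for Chrne (20.36 CPM, the next at 14.28 CPM) and replicate 4 for Rapsn (51.54 CPM, the next at 36.18 CPM).

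In fat, HH replicate 1 was above the other HH libraries for Musk (2.639 CPM, the next at 0.1196 CPM), Chrnd (0.4329 CPM, the next at 0.03986 CPM) and Chrng (0.06185 CPM, the others at 0). HL1002P replicate 4 was high for Chrnb1 (15.74 CPM, the next at 10.03 CPM). HH replicate 1 of fat held 17024 CPM of muscle markers, and their part in these values was not tested.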

How the results depend on the processing

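No member was called in any comparison, and most single-member values kept their direction and side of the threshold. The exceptions follow, and the cause was not tested. DESeq2 called 2 members in HL1002P against WT (Chrng, Chrnb1), 2 in HH against WT (Chrng, Chrnb1) and 4 in both mutants against WT (with Chrna1 and Dok7); over all genes it called 188, 653 and 661, against 17, 55 and 76. Chrng alone was called (1 member) in both mutants against WT with no filter on low counts and with a sex covariate, and in HH against WT with the compared groups only. Over all genes these fits called 115, 219 and 85. Without replicate 1 of both mutants, 1, 3 and 3 members were called in HL1002P, HH and both mutants against WT. Beside them, 12, 64 and 64 of 14726 genes were called. Leaving out 1 library at a time gave 0 to 1 called members in HL1002P against WT, 0 to 4 in HH against WT, 0 to 2 in both mutants against WT, 0 between the mutants, and in fat 0 to 1 for HL1002P and 0 elsewhere.

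With the replicate block, 2 members were called in HH against WT (Chrng, Chrnb1; 203 genes in all) and 2 in both mutants against WT (278 genes in all). There the numbers do not pair the libraries by every pair (r = −0.01 to 0.36 for HH and WT, 0.06 to 0.29 for HL1002P and WT). The block turned Rapsn (0.027) and Lrp4 (−0.0637) in HH and Lrp4 in both mutants (−0.0206).

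Several values changed sign. With limma voom these were Lrp4 in HL1002P (−0.0092) and, between the mutants, Chrnd (−0.0269), Chrng (−0.0919), Chrna1 (−0.0411) and Lrp4 (−0.0318). Without replicate 1 of both mutants they were Lrp4 in HL1002P (−0.1383), HH (−0.0854) and both (−0.1118), Rapsn in HH (0.0573), and between the mutants Chrnd (−0.1175), Chrng (−0.4814), Chrne (−0.2274), Chrna1 (−0.1307), Rapsn (−0.049), Lrp4 (−0.0529), Musk (0.0477) and Dok7 (0.07). Leaving out 1 library at a time turned the sign between the mutants for Chrnd (−0.70 to 0.92), Chrng (−0.74 to 1.34), Chrne (−0.13 to 0.21), Chrna1 (−0.67 to 0.66), Lrp4 (−0.17 to 0.13), Chrnb1 (−0.50 to 0.0802), Musk (−0.85 to 0.18) and Dok7 (−0.26 to 0.0769). It did so against WT for Rapsn (−0.0046 to 0.22 in HL1002P, −0.14 to 0.13 in HH, −0.0506 to 0.17 in both), Lrp4 (−0.14 to 0.17, −0.0856 to 0.17 and −0.0513 to 0.17) and Agrn (−0.05 to 0.17 in HL1002P).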
